A study of Homo sapiens with 36 samples.

Results

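Neuropeptide precursor genes were followed while H9 human embryonic stem cells, which differed in RAI1, were turned into neurons. RAI1 is the gene for a nuclear protein that reads chromatin and whose loss of a copy causes Smith-Magenis syndrome. The 10 genes were PENK, PDYN, SST, NPY, TAC1, CRH, GAL, VIP, CARTPT and ADCYAP1. They were found by symbol among the 62710 gene rows of the tables of counts and of TPM (transcripts-per-million, which adjust for transcript length), and each symbol had 1 row. The set was put together around PENK, which was picked for its difference between KO and WT cells at day 7, so that comparison is given for all 10 genes as a description without a test.

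The genotypes compared were WT cells, cells labelled HET (RAI1+/-) and cells labelled KO (RAI1-/-). Every group carried the doxycycline-dependent NGN2 transgene that turns stem cells into neurons, and was sampled at day 0, day 3 or day 7 of induction with 4 replicates, which made 9 groups and 36 libraries. Stem cells were kept in mTeSR Plus on Geltrex with a ROCK inhibitor at plating, and differentiating cultures in Neurobasal-A with GlutaMAX, B27, GDNF, NT3 and CultureOne. Ribosomal RNA was removed from the total RNA before sequencing, and the reads came in pairs. The labels call the replicates biological, give all libraries the same batch name, and do not say how many clones stand behind each genotype or whether the replicates were separate inductions. The p-values therefore measure the spread between these libraries, which may be partly technical.

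Neuropeptides are made as long precursor proteins that enter the secretory pathway, are packed into dense-core granules, and are cut there by prohormone convertases and trimmed and amidated into active peptides. Released peptides act on G protein-coupled receptors, often far from the release site. In the nervous system a given precursor usually marks particular neuron types: SST, NPY and VIP are known for cortical interneurons, PENK, PDYN and TAC1 for striatal projection neurons, TAC1, GAL and ADCYAP1 for sensory neurons, and CRH, GAL and CARTPT for hypothalamic neurons. NGN2 induction is used to make mainly glutamatergic neurons. In bulk RNA, fewer cells that express a gene and less RNA per expressing cell cannot be told apart.

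Several precursor genes are textbook targets of the cyclic AMP response element, TGACGTCA, the palindrome through which CREB acts, and the SST promoter is the classical case. The promoter stretches of SST and ADCYAP1, which rose between day 3 and day 7 in every genotype, of TAC1, which rose then in HET and KO, and of 2 genes that stayed near 0 (VIP and CARTPT) are shown so that this element can be seen beside the levels given below. They come from RefSeq on GRCh38.p14, which had an entry for 7 of the 10 genes, run 5′ to 3′ from 250 bases before the RefSeq start, and end at that start or, where it comes first, at the gene body of GENCODE 29. Capitals mark the core TGACG on either strand (CGTCA on the other), and where both overlap they spell the full element.
SST, chr3:187670400-187670644, minus strand: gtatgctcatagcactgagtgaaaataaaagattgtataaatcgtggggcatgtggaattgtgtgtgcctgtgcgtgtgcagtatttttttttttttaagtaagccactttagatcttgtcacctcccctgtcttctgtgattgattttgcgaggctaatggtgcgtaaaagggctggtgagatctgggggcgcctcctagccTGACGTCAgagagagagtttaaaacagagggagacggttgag
CARTPT, chr5:71719025-71719162, plus strand: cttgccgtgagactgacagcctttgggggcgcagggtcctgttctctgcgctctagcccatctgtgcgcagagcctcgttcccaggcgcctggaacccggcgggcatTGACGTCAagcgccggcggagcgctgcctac
VIP, chr6:152750547-152750796, plus strand: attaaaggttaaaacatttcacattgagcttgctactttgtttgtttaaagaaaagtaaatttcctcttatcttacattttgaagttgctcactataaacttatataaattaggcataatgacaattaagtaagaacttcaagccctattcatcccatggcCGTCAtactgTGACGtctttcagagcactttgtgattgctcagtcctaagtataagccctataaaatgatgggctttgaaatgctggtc
TAC1, chr7:97731836-97731907, plus strand: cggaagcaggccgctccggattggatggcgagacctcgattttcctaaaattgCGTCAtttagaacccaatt
ADCYAP1, chr18:904621-904870, plus strand: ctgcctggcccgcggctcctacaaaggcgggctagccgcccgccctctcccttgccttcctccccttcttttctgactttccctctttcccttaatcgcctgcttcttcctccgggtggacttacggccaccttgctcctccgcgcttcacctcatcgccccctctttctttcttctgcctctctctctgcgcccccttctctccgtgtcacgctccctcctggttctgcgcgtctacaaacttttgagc

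The full element TGACGTCA began 47 bases before the start in SST and 143 bases before it in CARTPT. Of 35116 RefSeq windows of the same length, 578 (1.65%) held it. VIP had 2 separate cores, 89 and 79 bases before the start, and TAC1 had 1, 197 bases before it, where 21.2% of all windows held at least 1 core on either strand. The letters CAGATG on either strand, one form of the E-box that NGN2 and its relatives bind, were found in the windows of TAC1 (173 bases before the start, past the printed stretch) and CARTPT (192 bases before), and in 12.2% of all windows. The ADCYAP1 stretch shown held neither motif, and a second annotated ADCYAP1 start, inside the gene body, had 1 core 238 bases before it. The windows of PDYN and NPY held neither motif. These are matches of letters and no evidence of binding. Of the 2 genes with the full element, SST was the most abundant precursor at day 7 and CARTPT stayed at or near 0 counts.

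Library totals ranged from 23948079 to 56678796 counts. RAI1 transcripts do not check the genotype labels: at day 7 RAI1 stood at 52.2 ± 14.8 CPM (scaled counts-per-million; SD, n = 4) in WT, at 73 ± 16.2 for HET and at 86.7 ± 16.2 for KO, so directions below follow the labels. Counts from 5 small structural RNAs took 2.84% to 27.5% of a library, with both extremes among the HET libraries at day 7 (replicates 2 and 1). Pan-neuronal markers summed to 224 to 661 CPM at day 0 and to 5470 to 10900 (WT), 10100 to 12800 (HET) and 10700 to 14300 CPM (KO) at day 7, and all 6 were above 3 counts in every library. The stem cell genes POU5F1 and NANOG were at 9 counts or fewer in every library of day 7. The other stem cell genes on the list went in opposite directions at day 7: LIN28A ran from 13.1 to 29.4 CPM in WT, from 55.4 to 137 in HET and from 221 to 308 in KO, and DPPA4 from 27.8 to 38.2, from 9.35 to 23.5 and from 4.2 to 12.5 CPM. Differences are edgeR log2 fold changes with their standard errors (SE), and a gene is said to rise, fall or be called where the p adjusted over all genes tested is under 0.05.

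Of the 10 precursors, SST was the most abundant at day 7 in each genotype, and PENK came next in KO alone. Levels between genes are compared per transcript length, in TPM. In KO cells at day 7 the mean TPM was 704 ± 307 for SST, 95.8 ± 25.7 for PENK, 12.8 ± 13.3 for GAL, 10.6 ± 2.25 for ADCYAP1, 6.88 ± 2.89 for TAC1 and 0.808 ± 0.563 for CRH (SD, n = 4 each). GAL, ADCYAP1 and TAC1 overlapped there and did not differ beyond their spread, while SST and PENK each stood clear of every gene below them. In WT cells SST was at 468 ± 321 TPM. GAL at 1.54 ± 1.79, ADCYAP1 at 0.818 ± 0.479, CRH at 0.225 ± 0.169 and TAC1 at 0.115 ± 0.0569 TPM followed, and these all overlapped. PENK was listed at 0 in WT. In HET cells SST was at 678 ± 466, GAL at 15.1 ± 12.4, ADCYAP1 at 6.9 ± 4.56, TAC1 at 4.65 ± 3.91 and CRH at 3.08 ± 2.22 TPM, and the last 4 overlapped.

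**Figure D1:**
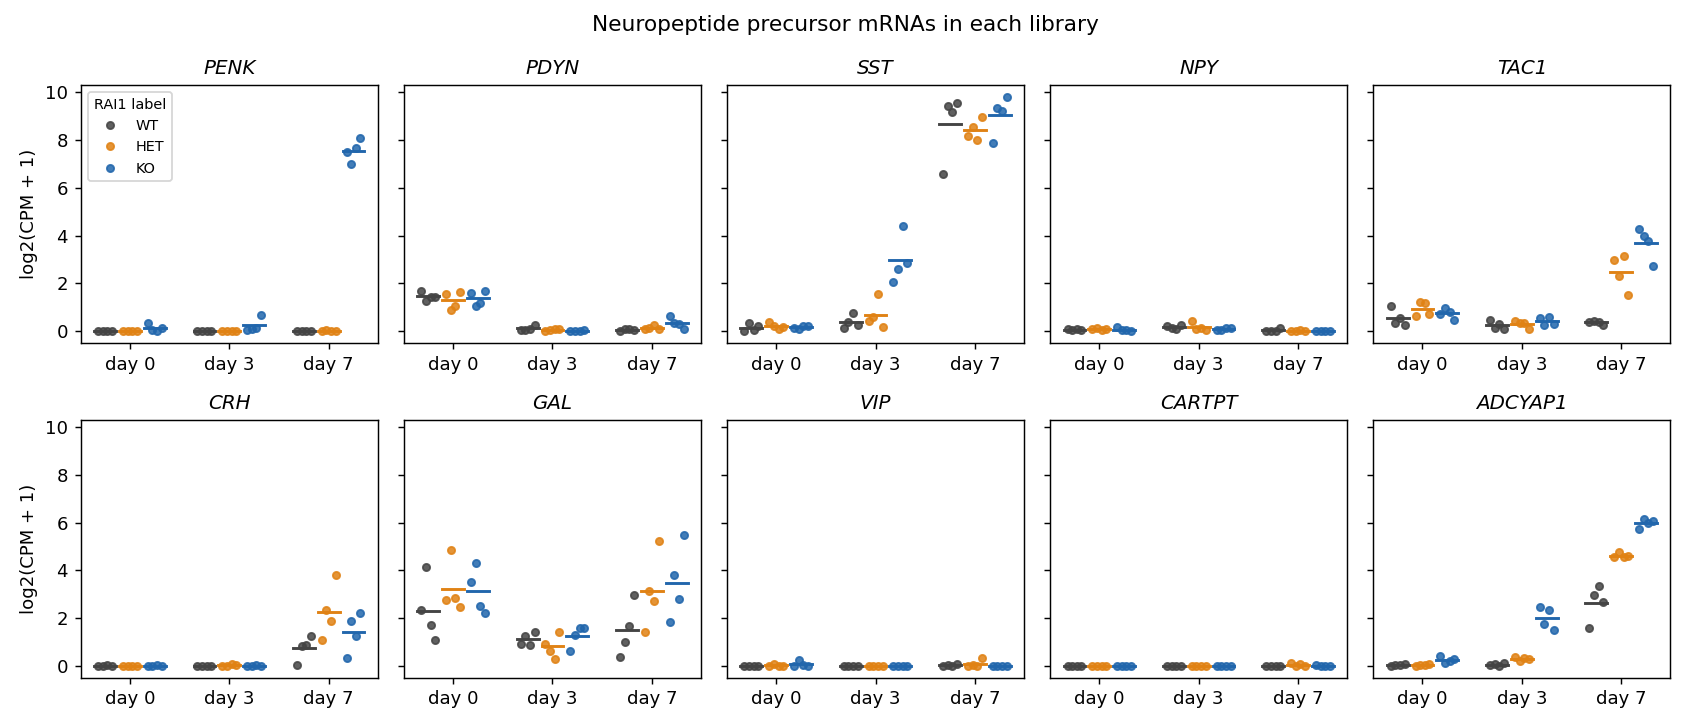
Each panel shows 1 precursor, with log2(CPM + 1) on the vertical axis and the day of induction on the horizontal axis; points are libraries (4 per group, coloured by RAI1 label) and short lines are group means on that scale. PENK leaves the baseline only in the 4 KO libraries at day 7 (127 to 272 CPM), SST rises in every genotype, and NPY, VIP and CARTPT stay near 0 throughout.

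PENK encodes proenkephalin, the precursor of the enkephalins that act on the delta and mu opioid receptors. It was abundant in KO cells at day 7 and at or near 0 counts elsewhere. The 4 KO libraries at day 7 held 6829, 4877, 7169 and 8733 counts, or 178, 127, 203 and 272 CPM. All 4 WT libraries at day 7 held 0 counts, and the 4 HET libraries held 0, 1, 0 and 0. The KO range thus lay far from both other genotypes, with no overlap. Against the floor of 3 counts per library, which for WT at day 7 corresponds to 0.0799 CPM, the KO mean of 195 ± 60.5 CPM (SD, n = 4) was at least 2440-fold higher. On the scale of deposited TPM the KO libraries had 78.34, 69.37, 114.24 and 121.1, and the sole HET library with a count had 0.09.

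In KO cells a trace of PENK was present before day 7. At day 0 the 4 KO libraries held 10, 1, 0 and 3 counts, and at day 3 they held 2, 3, 4 and 25. In WT and HET cells all 16 libraries of these days held 0. The KO libraries thus carried the only PENK reads of days 0 and 3, at a level no higher than 0.614 CPM. PENK did not pass the filter on low counts at these days between genotypes. Between day 0 and day 3 of the KO series the difference was 0.93 log2 (SE 0.92) and did not pass the threshold, with an edgeR adjusted p of 0.404. From day 3 to day 7 the KO mean went from 0.209 ± 0.271 to 195 ± 60.5 CPM, and this is given as a description because it uses the libraries on which PENK was picked.

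PENK (ENSG00000181195) lies on the minus strand of chromosome 8 (56436674 to 56446734, GRCh38). It overlaps an antisense gene (ENSG00000254254, PENK-AS1 in the deposited tables), and whether strand was used in counting is not given in the sources used here, so reads of the pair cannot be told apart. PENK-AS1 was also the gene whose pattern was most like that of PENK over the 36 libraries (Pearson r of log2(CPM + 1) = 0.997 among 13420 genes), at 6.22 CPM in KO and 0 in WT at day 7. The next were UNC13C, a presynaptic protein of the Munc13 family that prepares vesicles for release (r = 0.986, 13.3 CPM in KO and 0 in both other genotypes at day 7), the long noncoding RNA LINC00645 (r = 0.964), the kinase gene ALPK1 (r = 0.895) and the olfactory receptor gene OR6K3 (r = 0.886). ALPK1 and OR6K3 differed from PENK in HET cells at day 7, where they were at 2.76 and 1.7 CPM. These correlations rest on 1 group of 4 libraries being high, and describe likeness only.

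PDYN, the precursor of the dynorphins that act on the kappa opioid receptor, fell early in induction. At day 0 it was present at a low level in every library, between 26 and 81 counts. Mean CPM was 1.76 ± 0.339 (WT), 1.5 ± 0.618 (HET) and 1.65 ± 0.572 (KO), and the genotypes overlapped. By day 3 it was down to 2, 2, 3 and 8 counts in WT, 0, 1, 4 and 2 in HET, and 0, 0, 0 and 1 in KO, below every day 0 library. PDYN fell in WT, with a change of -4.31 log2 (SE 0.50, adjusted p 4.62e-06). In HET its change was -5.09 log2 (SE 0.63, adjusted p 3.05e-05). In KO the fall also passed (adjusted p 2.84e-06), and no fold is given because the 4 day 3 libraries held 1 count in total. Without WT replicate 4 of day 3 the WT change was -5.05.

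At day 7 PDYN had 22, 11, 8 and 2 counts in KO, 2, 4, 8 and 2 in HET, and 0, 3, 2 and 1 in WT. The groups overlapped in pairs, and PDYN was too low to be tested between genotypes at days 3 and 7. Within KO the increase from day 3 to day 7 passed in edgeR (adjusted p 0.000417) and did not on log2(TPM + 1) (adjusted p 0.508). PDYN also overlaps an antisense gene, PDYN-AS1. OPRK1, which encodes the kappa receptor for dynorphins, was higher in KO at day 3: it stood at 35.6 ± 9.03 CPM in KO against 0.0656 ± 0.0372 in WT, a difference of 9.00 log2 (SE 0.43, adjusted p 3.25e-08). The WT mean was close to the floor of 3 counts per library (0.0683 CPM for WT at day 3), so the size of this fold is uncertain.

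SST encodes the precursor of somatostatin, an inhibitory peptide that acts on the SSTR receptors. It was near 0 at day 0 in all genotypes (at most 12 counts), was already present in KO cells at day 3, and was the most abundant precursor in all genotypes at day 7. At day 3 the KO libraries had 3.21, 5.08, 20 and 6.14 CPM, the HET libraries 0.352, 0.526, 1.93 and 0.137, and the WT libraries 0.111, 0.314, 0.671 and 0.183. Every KO library was above every WT and HET library, and HET and WT overlapped. SST was higher in KO than in WT at day 3 by 4.75 log2 (SE 0.85, adjusted p 0.00147). Pan-neuronal markers summed to 1270 to 1570 CPM in WT, 1780 to 4180 in HET and 4340 to 7520 in KO at day 3, and their part in this difference was not tested. Replicate 3 was the highest SST library of each genotype at that day. Without KO replicate 3 the difference was 3.94, and without WT replicate 3 it was 5.42, both past the threshold.

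The KO excess of SST over HET at day 3 was 3.49 log2 (SE 0.78, adjusted p 0.0248). It lost the threshold without KO replicate 3 (2.69, adjusted p 0.0711), HET replicate 1 (3.26, 0.0935) or HET replicate 2 (3.36, 0.0686), and was 4.62 without HET replicate 3. HET against WT at day 3 was 1.25 log2 (SE 0.80) with an adjusted p of 0.542. At day 7 the WT libraries had 95.2, 685, 576 and 751 CPM, the HET libraries 287, 371, 254 and 498, and the KO libraries 232, 644, 597 and 903. All 3 genotypes overlapped, and WT replicate 1 was the lowest of the 12. The HET difference from WT was -0.59 log2 (SE 0.52, adjusted p 0.495) and KO minus HET was 0.73 log2 (SE 0.52, adjusted p 0.574), neither past the threshold. On log2(TPM + 1) the HET difference had the other sign, 0.68 (SE 0.70, adjusted p 0.43), with HET replicates 2 and 3 at 1282.14 and 698.14 TPM.

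From day 3 to day 7 SST rose in WT by 10.72 log2 (SE 0.80, adjusted p 1.31e-07), in HET by 8.84 (SE 0.68, adjusted p 7.9e-07) and in KO by 6.11 (SE 0.59, adjusted p 1.79e-06). Leaving out replicate 3 of day 3 raised these to 11.36 in WT, 9.99 in HET and 6.9 in KO. The rise in HET minus that in WT was -1.90 log2 (SE 0.93) and did not pass (adjusted p 0.298). The same step for KO was not tested. Between day 0 and day 3 SST rose in KO by 6.08 log2 (SE 0.75, adjusted p 1.05e-05; 5.29 without KO replicate 3 of day 3) and in HET by 2.06 (SE 0.70, adjusted p 0.0272). The HET rise did not hold without replicate 3 of day 3 (0.92, adjusted p 0.169) or without replicate 2, 3 or 4 of day 0 (2.04, 1.87 and 1.94, adjusted p 0.0616, 0.0715 and 0.0727). In WT the step was 1.40 log2 (SE 1.05, adjusted p 0.261). SST was thus at 8.6 ± 7.67 CPM in KO when WT was at 0.32 ± 0.249, and at 594 ± 276 against 527 ± 297 CPM 4 days later.

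ADCYAP1 encodes PACAP, a peptide of the VIP and glucagon family known for raising cyclic AMP through its receptor PAC1, the product of ADCYAP1R1. On the CPM scale its day 3 and day 7 levels were ordered WT, HET, KO without overlap between neighbours. At day 3 the libraries had 0.0185, 0.0449, 0 and 0.105 CPM in WT, 0.302, 0.15, 0.27 and 0.24 in HET, and 4.59, 2.39, 4.01 and 1.84 in KO. At day 7 they had 2, 6.73, 9.23 and 5.44 CPM in WT, 22.8, 25.9, 22.8 and 23.2 in HET, and 52.8, 70.3, 62.6 and 67 in KO. The lowest KO library at day 3 was close to the lowest WT library at day 7 (1.84 and 2 CPM). The 5 peripheral and sensory markers summed to 78.3 to 115 CPM in WT, 161 to 226 in HET and 338 to 714 in KO at day 3, also without overlap between genotypes, and the pan-neuronal sums given for SST did not overlap either. At day 7 they summed to 242 to 492, 397 to 1200 and 446 to 855 CPM, and their part in the ADCYAP1 levels was not tested.

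At day 3 ADCYAP1 was higher in KO than in WT by 6.23 log2 (SE 0.60, adjusted p 1.88e-05; 7.07 without WT replicate 4) and higher in KO than in HET by 3.72 log2 (SE 0.50, adjusted p 0.0012). HET exceeded WT by 2.51 log2 (SE 0.63), just past the threshold at an adjusted p of 0.0478, on 6 to 15 counts per HET library. That call was lost without replicate 1, 2 or 3 of either genotype (adjusted p 0.159, 0.111 and 0.104 for WT, 0.107, 0.0627 and 0.129 for HET), with scaling by library size alone (0.0519) and on log2(TPM + 1) (0.967). It kept its direction each time, and was 3.32 log2 without WT replicate 4. With the replicate number as a block it was 2.49 (adjusted p 0.0326).

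Mean ADCYAP1 at day 7 was 5.85 ± 3.01 CPM for WT, 23.7 ± 1.5 for HET and 63.2 ± 7.59 for KO (SD, n = 4 per group). HET exceeded WT by 2.01 log2 (SE 0.33, adjusted p 0.00214), and by 2.00 log2 (adjusted p 0.00109) without HET replicate 1, the library with the largest share of small structural RNAs. KO minus HET was 1.39 log2 (SE 0.32) with an adjusted p of 0.051, although no KO library overlapped a HET library in CPM. In TPM they did overlap, with HET from 2.85 to 13.03 and KO from 7.61 to 12.96. KO minus WT, given as a description, was 3.39 log2. ADCYAP1 rose from day 3 to day 7 in WT by 7.11 log2 (SE 0.65, adjusted p 8.9e-07; 7.91 without WT replicate 4 of day 3), in HET by 6.62 (SE 0.33, adjusted p 3.27e-08) and in KO by 4.30 (SE 0.29, adjusted p 5.98e-08). From day 0 to day 3 it rose in HET by 2.82 (SE 0.47, adjusted p 0.000299; 0.05 and adjusted p 0.923 on log2(TPM + 1)) and in KO by 3.94 (SE 0.36, adjusted p 5.82e-07). In WT it did not pass (0.56 log2, SE 1.08, adjusted p 0.674).

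A trace was there at day 0 as well. The KO libraries then held 12, 3, 5 and 7 ADCYAP1 counts, against 0, 1, 1 and 2 in both WT and HET. The KO range was the higher without overlap, and the gene was too low there to be tested. ADCYAP1 (ENSG00000141433, chromosome 18, plus strand, 904943 to 912172) overlaps 2 genes on the opposite strand. Genes with the most similar pattern over the 36 libraries were RUNDC3B (r = 0.986), ZCCHC12 (r = 0.985) and POU4F2 (r = 0.983), the last a transcription factor of retinal ganglion and sensory neurons that was at 6.67, 19.4 and 28.5 CPM in WT, HET and KO at day 7.

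**Figure D2:**
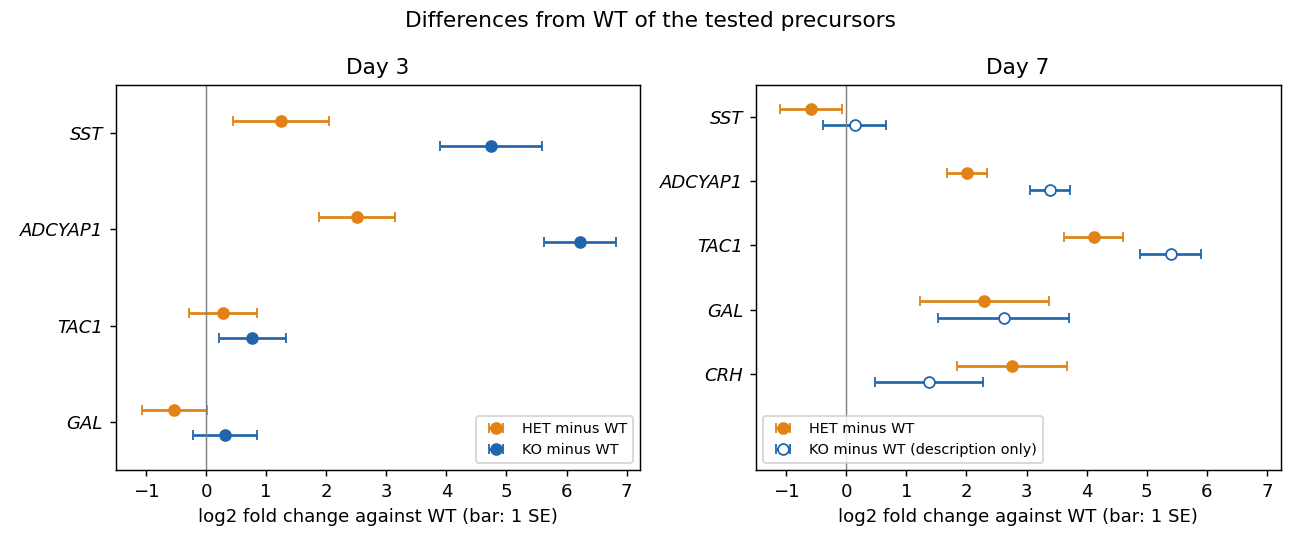
Differences from WT at day 3 (left) and day 7 (right) for the precursors that passed the filter on low counts, in log2 units; points are edgeR estimates, bars are 1 SE, filled points are tested differences and open points (KO at day 7) are given as a description. PENK is left out because WT is at 0. ADCYAP1 lies right of 0 in all 4 cases (2.51 and 6.23 at day 3, 2.01 and 3.39 at day 7), SST lies farthest from 0 in KO at day 3 (4.75), and TAC1 at day 7 (4.12 in HET and 5.40 in KO).

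TAC1 encodes the precursor of substance P and neurokinin A, the ligands of the tachykinin receptors. It was low and similar in all genotypes at days 0 and 3 and separated at day 7. The WT libraries at day 7 had 0.308, 0.333, 0.32 and 0.206 CPM, the HET libraries 6.8, 4.02, 7.84 and 1.82, and the KO libraries 18.1, 14.8, 12.6 and 5.68. No WT library reached the HET or KO range, while the lowest KO library lay within the HET range. Replicate 4 was the lowest in each genotype. The 7 GABAergic interneuron markers summed to 1.23 to 5.26 CPM in WT, 11 to 19.7 in HET and 4.9 to 22.6 in KO at day 7, and their part in the TAC1 levels was not tested. HET exceeded WT by 4.12 log2 (SE 0.49, adjusted p 0.00027), and by 3.93 (adjusted p 0.00024) without HET replicate 1. KO minus HET was 1.28 log2 (SE 0.41, adjusted p 0.174) and did not pass. KO minus WT was 5.40 log2 as a description.

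From day 3 to day 7 TAC1 rose by 4.42 log2 in HET (SE 0.57, adjusted p 5.28e-05) and by 5.23 in KO (SE 0.45, adjusted p 5.48e-07). In WT the step was 0.54 log2 (SE 0.57, adjusted p 0.468). The HET step exceeded the WT step by 3.87 log2 (SE 0.77, adjusted p 0.00204 in the fit over all 36 libraries), and the value stayed between 3.32 and 4.14 when any 1 library of the 16 was left out. In that test 4.74% of all 24764 genes passed in either direction and 2.06% upwards, and TAC1 was the only precursor of the 5 with enough counts for a value that did so. Between day 0 and day 3 TAC1 fell in HET by 1.99 log2 (SE 0.54, adjusted p 0.00871; adjusted p 0.196 on log2(TPM + 1)). In WT its change of -1.34 log2 (SE 0.55, adjusted p 0.0464) was lost without replicate 1 or 3 of day 0 (-0.70 and -1.38, adjusted p 0.265 and 0.0686) or replicate 2, 3 or 4 of day 3 (-1.15, -1.38 and -1.09, adjusted p 0.112, 0.0798 and 0.114). Genes with a pattern like that of TAC1 over the libraries included PCP4 (r = 0.952) and HPCAL4 (r = 0.944).

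GAL encodes the precursor of galanin, and CRH that of corticotropin-releasing hormone, the peptide that starts the stress response in the hypothalamus. At day 7 both varied widely between replicates, and in both the same replicate numbers were at the extremes of each genotype. For GAL, replicates 1 to 4 of day 7 had 0.308, 1.02, 2.15 and 6.86 CPM in WT, 1.67, 7.72, 5.59 and 36.6 in HET, and 2.53, 12.8, 5.91 and 43.3 in KO. Replicate 4 was the highest and replicate 1 the lowest in all 3 genotypes, and the genotypes overlapped. HET minus WT was 2.30 log2 (SE 1.08, adjusted p 0.175) and KO minus HET was 0.33 (SE 1.02, adjusted p 0.918), neither past the threshold. Each HET library was nevertheless above the WT library of the same number. With the replicate number as a block, HET minus WT passed the threshold. The check of same-numbered libraries, given below, did not pair this comparison, so whether GAL differs depends on that choice. KO minus WT was 2.62 log2 as a description.

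For CRH, replicates 1 to 4 of day 7 had 0.0308, 0.785, 0.815 and 1.37 CPM in WT, 1.1, 4.08, 2.72 and 12.9 in HET, and 0.261, 2.73, 1.39 and 3.71 in KO. Again replicate 4 was the highest and replicate 1 the lowest in each genotype, and the ranges overlapped. HET minus WT was 2.76 log2 (SE 0.92), short of the threshold at an adjusted p of 0.0618. Without HET replicate 1 it was 3.06 and passed (adjusted p 0.0175). DESeq2 (adjusted p 0.0327) and edgeR without a filter on low counts (0.0348) also put it past the threshold. So did edgeR with the replicate number as a block, in a comparison that the check given below did not pair. Here too each HET library was above the WT library of the same number. KO minus HET was -1.38 log2 (SE 0.87, adjusted p 0.513). CRH was at 0 to 3 counts in every library of days 0 and 3. In HET it rose from day 3 to day 7 by 7.59 log2 (SE 1.06, adjusted p 0.000289; 8.67 without HET replicate 3 of day 3 and 6.64 without HET replicate 4 of day 7). These sizes are model estimates, because no HET library of day 3 exceeded the floor of 3 counts. Against that floor the HET mean of day 7 was at least 67.7-fold higher. Against the floor of 3 counts per library at WT day 3, the WT mean of day 7 (0.751 ± 0.551 CPM) was at least 11-fold higher.

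**Figure D3:**
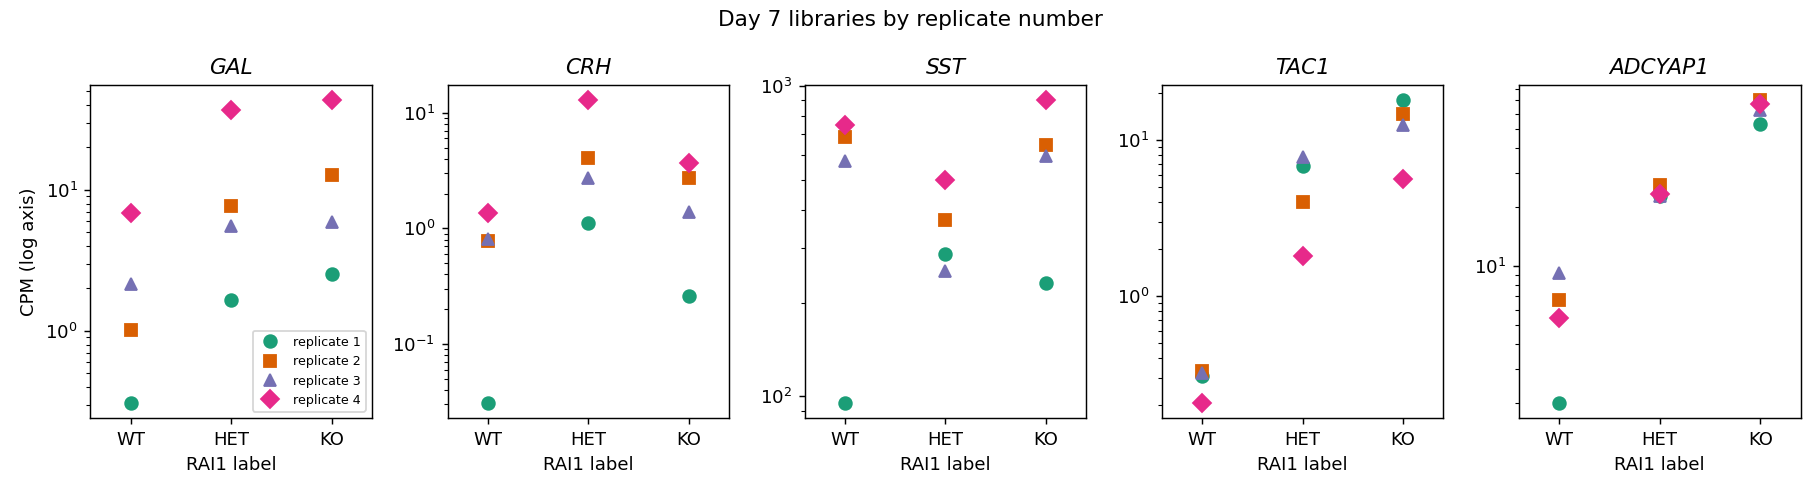
CPM at day 7 on log axes for 5 precursors, by RAI1 label, with 1 marker shape and colour for each replicate number. For GAL and CRH replicate 4 is the highest and replicate 1 the lowest point in all 3 genotypes, TAC1 has replicate 4 as its lowest point in all 3, and ADCYAP1 keeps its genotypes apart whatever the replicate.

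GAL was also a gene of the undifferentiated cells. At day 0 replicates 1 to 4 had 4.11, 16.6, 2.24 and 1.09 CPM in WT, 5.78, 27.6, 6.25 and 4.61 in HET, and 10.3, 19, 4.62 and 3.7 in KO. Replicate 2 was the highest of each genotype and the genotypes overlapped. From day 0 to day 3 GAL fell in WT by 2.34 log2 (SE 0.85, adjusted p 0.0279), in HET by 3.76 (SE 0.97, adjusted p 0.00605) and in KO by 2.67 (SE 0.79, adjusted p 0.0099). Without replicate 2 of day 0 these changes were -1.07 in WT (adjusted p 0.228), -2.78 in HET and -2.08 in KO. The WT call was also lost without replicate 1, 2 or 3 of day 3 (-2.20, -2.43 and -2.21, adjusted p 0.0675, 0.052 and 0.0748). From day 3 to day 7 GAL rose in HET by 3.97 log2 (SE 0.97, adjusted p 0.00549; 2.62 without replicate 4 of day 7) and in KO by 3.44 (SE 0.81, adjusted p 0.00302; 2.25 without it). The WT step was 1.15 log2 (SE 0.84, adjusted p 0.287), and the HET step did not exceed it by a tested margin (2.87 log2, SE 1.34, adjusted p 0.268).

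NPY, VIP and CARTPT were at the edge of detection in these cells. NPY, one of the most abundant peptides of the adult brain, had at most 13 counts in any library, VIP at most 7 and CARTPT at most 3. CARTPT held 0 counts in every library of days 0 and 3 and in WT at day 7, and 5 counts in all over the 4 HET libraries of day 7. None of the 3 genes passed the filter on low counts in any comparison, so no difference was detectable at this depth. A count of 0 in a WT library of day 7 allows up to 0.0799 CPM on average by the rule of 3 counts, which covers counting error only.

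The number of precursors past the threshold is set against all genes here. At day 0, 3 of the 10 genes passed the filter (PDYN, TAC1 and GAL) and none differed between genotypes in edgeR, nor at an unadjusted p under 0.05 (the smallest was 0.0873, TAC1 in HET and WT), and DESeq2 and limma on log2(TPM + 1) also called 0. The background was 2.08% of tested genes for KO and WT, 1.63% for HET and WT, and 0.856% for KO and HET. At day 3, 4 genes were tested: 2 were higher in KO than in WT (SST and ADCYAP1), where 21.6% of all genes were called in either direction and 12.6% higher. One was higher in HET than in WT (ADCYAP1; 3.28% of all genes called, 2.52% higher) and 2 were higher in KO than in HET (SST and ADCYAP1; 4.35% called, 2.77% higher). At day 7, 6 genes had counts enough to be fitted, with PENK at the floor in WT and HET. Of these, 2 were higher in HET than in WT (TAC1 and ADCYAP1; 14.4% of all genes called, 8.31% higher). KO exceeded HET at PENK alone, which was picked on these KO libraries, against 1.4% called and 0.668% higher. In KO against WT, 3 were past the threshold (PENK, TAC1 and ADCYAP1; 32.6% called, 17% higher), and nothing is read from that count.

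Over time, from day 0 to day 3, 3 genes fell in WT (PDYN, TAC1 and GAL), where 60% of all genes were called and 28.7% fell. In HET the same 3 fell and SST and ADCYAP1 rose (48.3% of all genes called, 24.4% higher and 23.9% lower). In KO, PDYN and GAL fell and SST and ADCYAP1 rose (59.3% called, 29.7% higher and 29.6% lower). From day 3 to day 7, SST and ADCYAP1 rose in WT (46.2% called, 23.3% higher), these 2 with TAC1, CRH and GAL in HET (41.2% called, 20.8% higher), and PDYN, SST, TAC1, GAL and ADCYAP1 in KO (47.8% called, 24.3% higher), with PENK left out as a description. With so many genes moving between days, counts of 2 to 5 carry little on their own, and the named values above carry the results. No precursor fell from day 3 to day 7 past the threshold in any genotype.

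Genes that process and store neuropeptides also differed between genotypes. Of 12 granule genes, 9 were higher and 1 lower in KO than in WT at day 3 (median 1.49 log2; -0.05 over all genes tested, of which 12.6% were higher), and 6 were higher and none lower in HET (median 0.87; 0.02 over all genes, of which 2.52% were higher). The pan-neuronal markers given above for day 3 were in the same order of genotypes, and their part in the granule genes was not tested. Of the 6 granule genes called in HET at day 3, only PTPRN2 and RAB3A had no overlap between HET and WT libraries. SCG2, SYT4 and SCG3 were just past the threshold there (edgeR adjusted p 0.0442, 0.0487 and 0.0496). SYT4, a synaptotagmin of granules, was at 91.5 ± 40.3 CPM in KO against 9.3 ± 4.49 in WT at day 3, higher by 3.30 log2 (SE 0.50, adjusted p 0.000482). RAB3A, a GTPase of vesicle release, was higher by 2.11 log2 in KO (SE 0.29, adjusted p 0.000228) and by 1.46 in HET (SE 0.29, adjusted p 0.0119). At day 7, 3 of 12 were higher in HET (median 0.61; 0.00 over all genes, of which 8.31% were higher), led by VGF, a granin that itself yields peptides, at 65 ± 33.4 against 6.42 ± 2.88 CPM (3.33 log2, SE 0.46, adjusted p 0.000825). VGF stood at 80.5 ± 19.3 CPM in KO.

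Of 12 processing enzymes and their chaperones, none was called in HET at day 3, 4 of the 11 tested were higher and 2 lower in KO at day 3 (median 0.17; -0.05 over all genes, of which 12.6% were higher and 21.6% called), and 5 of 12 were higher in HET at day 7 (median 0.91; 0.00 over all genes, of which 8.31% were higher). PCSK2, a convertase needed to free enkephalin and dynorphin peptides, stood at 5.3 ± 1.02 CPM in KO against 1.06 ± 0.322 in WT at day 3 (2.33 log2; SE 0.28, adjusted p 9.07e-05). At day 7 it was higher in HET by 2.11 log2 (27.6 ± 10.5 against 6.34 ± 2.29 CPM; SE 0.34, adjusted p 0.00185), and stood at 43.4 ± 8.18 CPM in KO. PCSK1, the other neuroendocrine convertase, was higher in HET at day 7 by 2.04 log2 (16.5 ± 8.61 against 3.97 ± 1.26 CPM; SE 0.43, adjusted p 0.00811), and stood at 43.7 ± 25.1 CPM in KO. PCSK6, a convertase of the constitutive pathway, was lower in KO at day 3 by a change of -1.53 log2 (SE 0.37, adjusted p 0.00995) and higher in HET at day 7 by 1.14 (SE 0.23, adjusted p 0.00697).

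Among 23 receptors for the 10 precursors, 11 passed the filter at day 3 and 18 at day 7. At day 3, 3 of 11 were higher and none lower in both KO and HET than in WT (12.6% and 2.52% of all genes were higher). They were OPRK1, SSTR2 and TACR1, the receptor for substance P. OPRK1 was at 0.364 ± 0.192 CPM in HET, against 35.6 ± 9.03 in KO and 0.0656 ± 0.0372 in WT. TACR1 was at 0.813 ± 0.681 CPM in HET and 0.11 ± 0.0843 in WT, just past the threshold (edgeR adjusted p 0.0478). The SSTR2 libraries of HET and WT overlapped. SSTR2, a main receptor for somatostatin, was at 605 ± 165 CPM in KO, 228 ± 118 in HET and 78.9 ± 21.4 in WT at day 3 (KO minus WT 2.94 log2, SE 0.38, adjusted p 0.000146). At day 7 the order was turned round, with 231 ± 73.3 CPM in WT and 89.9 ± 19.4 in HET (-1.37 log2, SE 0.25, adjusted p 0.00409), and 72.5 ± 11 in KO. In HET at day 7, 8 of the 18 receptors were higher and 2 lower (median 1.47; 0.00 over all genes, of which 8.31% were higher and 14.4% called). The PACAP receptor gene ADCYAP1R1 was among the 8, with 28.7 ± 15.3 against 8.57 ± 4.01 CPM (1.73 log2, SE 0.42, adjusted p 0.0162). So was the mu opioid receptor gene OPRM1, at 2.75 ± 2.68 against 0.0949 ± 0.068 CPM (4.77 log2, SE 1.02, adjusted p 0.00848). It was picked out after its values were seen, as a receptor for the product of PENK, and its HET and WT libraries overlapped. SSTR2 and VIPR2, a receptor for VIP and PACAP, were the 2 that were lower.

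**Figure D4:**
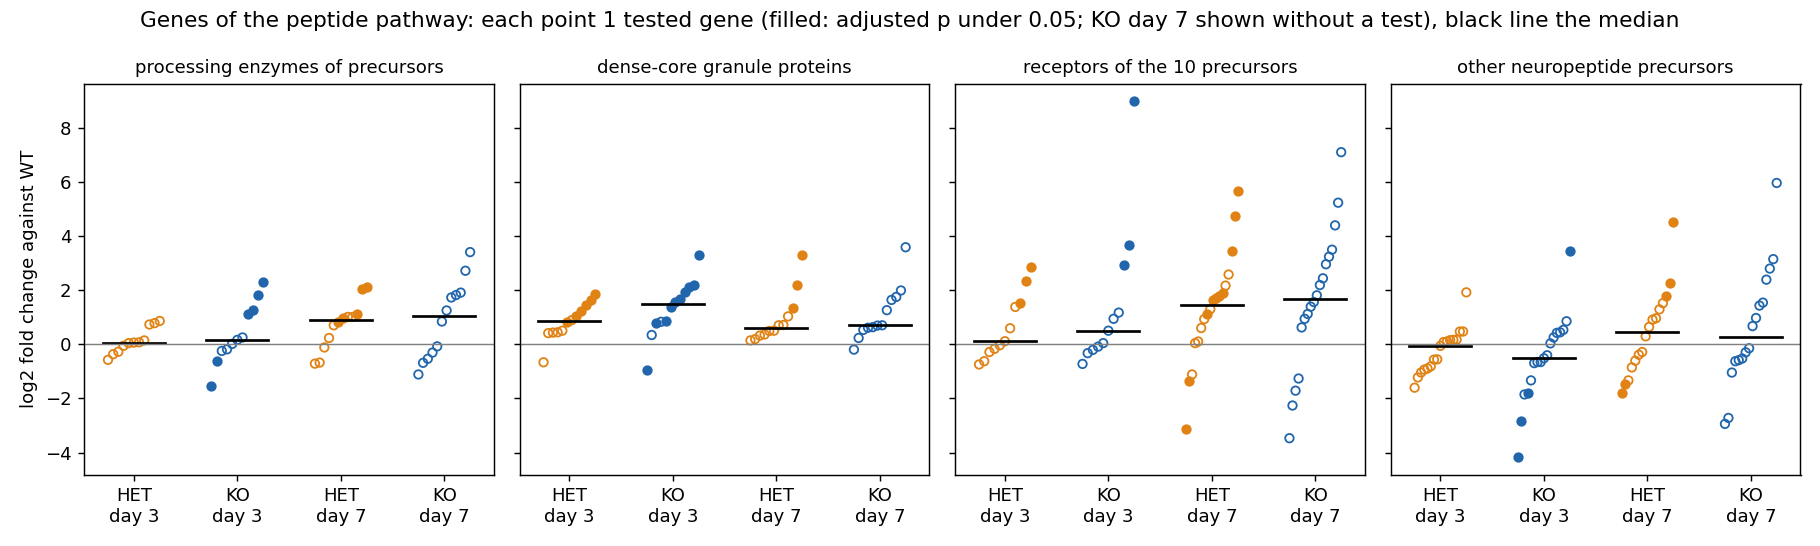
Differences from WT of the tested genes of 4 lists (processing enzymes, granule proteins, receptors of the 10 precursors, other neuropeptide precursors), in log2 units; each point is 1 gene, orange for HET and blue for KO, filled where the adjusted p is under 0.05, and KO at day 7 is drawn open because it is a description. Black lines are medians. Most granule genes at day 3 sit above 0 (medians 0.87 in HET and 1.49 in KO; CADPS2 lies below 0 in both), and receptors spread most widely at day 7.

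Of 48 other neuropeptide precursors, 17 passed the filter at day 3 and 16 at day 7. None was called in HET at day 3, and 1 was higher and 3 lower in KO (median -0.51), a share near the 21.6% of all genes called there. TAC3, NMB and PYY were the 3 that were lower. NPPC, the precursor of C-type natriuretic peptide, was the one that was higher (7.07 ± 3.66 against 0.644 ± 0.509 CPM; 3.47 log2, SE 0.59, adjusted p 0.00111). At day 7, 3 were higher (NTS, TRH and SPX) and 2 lower (UCN2 and IAPP) in HET, with a median of 0.47, where 14.4% of all genes were called. TRH, the precursor of thyrotropin-releasing hormone, was at 4.1 ± 1.45 CPM in WT and 14.4 ± 7.02 in HET (1.81 log2, SE 0.41, adjusted p 0.0108), and at 37.8 ± 16.8 in KO. The TRH means were thus in the order WT, HET, KO, but its HET libraries (6.25 to 22.4 CPM) and KO libraries (21.9 to 55.3 CPM) overlapped. None of the 16 was called between KO and HET at day 7. Of 10 genes for factors of the cyclic AMP and AP-1 response, 9 were tested at day 3 and 2 were higher in KO (CRTC1 by 0.71 log2, and NR4A2), a share near the 21.6% of all genes called. None was called in HET at either day.

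Markers of the neuron types in which these precursors are known are given here for day 7 without a test, and each sum overlapped between some genotypes. Of the GABAergic markers summed above, GAD2 ran from 0.185 to 1.85 CPM in WT, 3.83 to 12.3 in HET and 2.82 to 11.8 in KO at day 7. DLX1, DLX2 and LHX6 overlapped between all genotypes at that day, at no more than 0.503, 0.442 and 0.247 CPM. DLX5, a defining factor of forebrain interneurons, was at 0 or 1 count in every library of day 7. The 2 glutamatergic markers summed to 213 to 319 CPM in WT, 293 to 556 in HET and 399 to 540 in KO. These 2 went in opposite directions between WT and KO. SLC17A6 ran from 37.8 to 92.6 CPM in WT, 95 to 428 in HET and 273 to 408 in KO. SLC17A7 ran from 156 to 235 CPM in WT, 122 to 308 in HET and 126 to 132 in KO. The 4 hypothalamic and neuroendocrine markers summed to 8.56 to 52 CPM in WT, 20.2 to 89.9 in HET and 19.6 to 43.8 in KO at day 7. One of the 4, NKX2-1, was at or under 3 counts in every library. The members differed in pattern. SIM1 ran from 0.611 to 2.06 CPM in WT, 0.385 to 14.7 in HET and 9.3 to 31.6 in KO. FEZF1 ran from 6.86 to 47.6 CPM in WT, 16 to 68.5 in HET and 5.43 to 11 in KO. OTP overlapped between all genotypes. The part of these cell types in the precursor levels was not tested.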

How the data were processed

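The authors deposited expected counts per gene, as RSEM estimates them, and TPM per gene for the same 36 libraries. The submitters' processing notes name cutadapt 4.8, FastQC 0.11.8, MultiQC 1.20, STAR 2.7.8a, RSEM 1.3.3 and GRCh38; the annotation and the use of strand are not given in the sources used here. Expected counts were rounded to whole numbers and 4 reporter rows (at most 0.0171% of a library) were left out. Groups came from the labels. The 10 genes, the gene lists and the tests were chosen with earlier results of these data known.

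Genotypes were compared within each day, and days within each genotype, with the quasi-likelihood test of edgeR 4.0.16 under R 4.3.3. Genes were filtered with filterByExpr and libraries scaled with TMM, and p-values were adjusted by Benjamini-Hochberg over all genes tested (threshold 0.05). The difference of the day 3 to day 7 steps of HET and WT was tested over 36 libraries. CPM uses TMM scaling over all libraries. A count of 0 was read as below 3 counts. From each list, up to 3 called genes per comparison with the largest change were eligible for naming, at a mean of at least 5 CPM in the higher group and without overlap; likeness to a precursor was ranked by Pearson r over 36 libraries. Alternatives were RLE scaling, library size alone, DESeq2 1.42.0, limma 3.58.1 on log2(TPM + 1), no filter, a replicate block, and leaving out each library in turn (88 fits). The scripts were tested on simulated data.

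Same-numbered libraries deviated together (every correlation over 0.1) in KO and WT at day 0 (0.266 to 0.649) and day 3 (0.141 to 0.554) and in HET and WT at day 3 (0.172 to 0.773), so the numbers pair the libraries there. The labels do not say what a number stands for. Gene positions are from GENCODE 29 and promoters from RefSeq on GRCh38.p14. Sequences of PENK, CRH and GAL, and 1 gene ranked by likeness, are not reported here.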

Additional observations from a re-analysis of the deposited data

Results flagged for a closer look

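In 6 of 54 groups of 4 libraries with a value above 0, 1 library stood apart from the other 3 by Dixon's criterion at the 95% level; chance gives about 1 in 20 groups, or 2.7 here. PENK in KO replicate 4 at day 3 was at 0.614 CPM, where the other 3 KO libraries lay between 0.0476 and 0.111. GAL in HET replicate 2 at day 0 was at 27.6 CPM, where the others lay between 4.61 and 6.25. ADCYAP1 in HET replicate 2 at day 7 was at 25.9 CPM, where the others lay between 22.8 and 23.2. The remaining 3 rest on a few counts: NPY in WT replicate 4 at day 7 at 0.0915 CPM with the others at 0, VIP in KO replicate 2 at day 0 at 0.202 CPM with the others at 0 to 0.0328, and VIP in HET replicate 4 at day 7 at 0.277 CPM with the others at 0 to 0.027.

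The step of TAC1 from day 3 to day 7 differed between HET and WT by 3.87 log2 in the test of that difference (SE 0.77, adjusted p 0.00204).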

How the results depend on the processing

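Of 32 tested calls of a precursor (without the 5 given as a description), 24 stayed past the threshold in every alternative setting and in the leave-one-out fits with the lowest and highest estimates. The leave-one-out fits between these extremes do not enter that count. The number of precursors called moved in these cases. For HET and WT at day 3 it was 1, and 0 with library size alone and on log2(TPM + 1), and 0 to 1 without single libraries. Without single libraries it ranged from 1 to 2 for KO and HET at day 3 and from 1 to 3 for WT from day 0 to day 3. For KO and HET at day 7 it was 1, and 2 with RLE scaling, with DESeq2 and without a filter. On log2(TPM + 1) it was 2 for HET from day 0 to day 3 (5 in edgeR) and 2 for the HET and WT steps (1 in edgeR), where ADCYAP1 turned from -0.49 to 1.93 and SST from -1.90 to 0.17. On that scale PDYN turned to -0.07 in KO minus HET at day 0, SST to 0.68 in HET minus WT and GAL to -0.13 in KO minus HET at day 7, and ADCYAP1 to -0.00 in WT from day 0 to day 3.

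Leaving out single libraries turned the sign of differences that were not called. The ranges were -0.25 to 0.07 (PDYN, KO minus WT, day 0), -0.10 to 2.17 (GAL, HET minus WT, day 0), -0.06 to 0.32 (PDYN) and -0.84 to 0.77 (GAL) for KO minus HET at day 0, -0.21 to 0.37 (SST, KO minus WT, day 7), -0.92 to 1.70 (GAL, KO minus HET, day 7), -0.25 to 1.13 (ADCYAP1, WT, day 0 to 3), -0.04 to 1.52 (GAL, WT, day 3 to 7) and -0.55 to 2.17 (PENK, KO, day 0 to 3). The cause was not tested.

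With the replicate number as a block, the paired comparisons kept their number of called precursors, while calls over all genes went from 425 to 960 (KO and WT, day 0), 4649 to 8138 (KO and WT, day 3) and 708 to 1895 (HET and WT, day 3). In comparisons that the check did not pair, the block gave 5 called precursors for KO and WT, 4 for HET and WT (CRH and GAL gained, adjusted p 0.00163 and 0.00142) and 3 for KO and HET (TAC1 1.35, adjusted p 0.026, and ADCYAP1 1.37, adjusted p 0.0424) at day 7. Over time it gained SST in WT (1.54, adjusted p 0.046) and TAC1 in KO (-1.02, adjusted p 0.0239) and lost SST in HET (1.83, adjusted p 0.0753) from day 0 to day 3. On log2(TPM + 1) the median over all genes moved by up to 0.46 (HET minus WT, day 7). Depth limits NPY, VIP, CARTPT and, at most days, PDYN and CRH.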

Other observations

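Genes with a pattern like that of the other precursors over the 36 libraries are given as a description. They were NXPH4 (r = 0.983), RIMS3 (r = 0.974) and ARHGDIG (r = 0.973) for SST, of which RIMS3 was at 706 CPM in WT and 435 CPM in KO at day 7. For CRH they were PCP4L1 (r = 0.920), NBPF6 (r = 0.912) and GAD2 (r = 0.899), the last an enzyme of GABA synthesis. For GAL the likeness was lower, with STK32B (r = 0.837), CDH13 (r = 0.826) and SH2B3 (r = 0.812).

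OPRD1, which encodes the delta receptor for enkephalins, differed between genotypes at day 0, when none of the 3 precursors tested did. The other precursors were too low at that day to be tested. It was at 5.27 ± 1.15 CPM in KO and 5.02 ± 0.399 in HET against 2.63 ± 0.642 in WT (1.03 log2, SE 0.19, adjusted p 0.0127, and 0.95 log2, SE 0.19, adjusted p 0.0241). No KO or HET library overlapped a WT library.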
